A study of Saccharomyces cerevisiae with 39 samples.

Results

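The genes described here are the transfer RNA (tRNA) genes of budding yeast. They were taken as every row of the deposited count files whose identifier has the form of a tRNA gene name, such as tK(UUU)D, which gives the amino acid in 1-letter code (K, lysine), the anticodon in brackets and the chromosome as a letter (D, chromosome IV). This rule found 299 of the 8898 rows, of which 275 were nuclear and 24 belonged to the mitochondrial genome (letter Q). The nuclear rows served glycine, leucine and lysine with 21 each, arginine with 19, serine and valine with 18 each, alanine, aspartate, glutamate and threonine with 16 each, and isoleucine with 15. Proline had 12, asparagine, glutamine, methionine and phenylalanine had 10 each, tyrosine had 8, histidine 7, tryptophan 6 and cysteine 4, and 1 nuclear row, tX(XXX)D, names no amino acid. Among the mitochondrial rows, arginine, methionine, serine and threonine had 2 each and the other amino acids 1 each. The nuclear identifiers name 41 anticodons and the mitochondrial identifiers 22.

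RNA was sequenced from 39 cultures of Saccharomyces cerevisiae in 13 groups of 3, each a strain with a chromosomal RNA exosome gene deleted and a LEU2 plasmid (pRS315) that carries the wild-type gene, a missense version of it, or nothing. All were labelled BY4741 haploid, carried ura3Δ0, leu2Δ0 and his3Δ1, and were cultured in 10 mL of leucine-free minimal glucose medium, with 5 h at 37 °C. RRP4 and rrp4-G226D were MATα with lys2Δ0 and rrp4Δ::NEO. RRP40, rrp40-S87A and rrp40-W195R were MATa with rrp40Δ::NEO, and RRP45 and rrp45-I15P were MATα with rrp45Δ::NEO. RRP46, rrp46-Q86I, rrp46-L127T and rrp46-L191H were MATα with lys2Δ0 and rrp46Δ::kanMX4. RRP6 and rrp6Δ were MATa with met15Δ0 and rrp6Δ::kanMX4, and the rrp6Δ strain held the plasmid without a gene. Each mutant was compared with the wild-type plasmid group of its own family. Plasmid expression stands in for the chromosomal gene in every group except rrp6Δ, controls included. The labels describe cultures grown in triplicate and give no separate isolates, so p-values measure the spread between these cultures, which may be technical.

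A nuclear tRNA is made by RNA polymerase III as a precursor with extra bases at both ends and, in some genes, an intron beside the anticodon. The ends are trimmed and a CCA tail is added, the tRNA splicing endonuclease and ligase remove the intron, and many bases are modified before a synthetase attaches the amino acid. The RNA exosome, a ring-shaped complex of which Rrp4, Rrp40, Rrp45 and Rrp46 are subunits, degrades RNA from its 3′ end. With its nuclear partner exonuclease Rrp6 and the TRAMP complex, which adds a short poly(A) tail, it is known to degrade hypomodified and surplus precursor tRNAs. Mitochondrial tRNAs are transcribed inside the organelle by a separate polymerase and are trimmed by separate enzymes.

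The 8 genes on which the results below turn most are printed 5′ to 3′ from the RefSeq R64 genome, which is the build named in the submitters' processing notes. The first 3 contain an intron, shown in capitals, and the other 5 show the anticodon in capitals. The first is tK(UUU)D (chrIV:359577-359672, plus strand), a lysine gene whose whole sequence occurs in 6 genes. The second is tW(CCA)P (chrXVI:56169-56274, minus strand), the tRNA row with the highest level, which also has 6 identical genes. The third is tI(UAU)D (chrIV:884361-884493, plus strand), with an intron of 60 bases, the longest of the RefSeq tRNA genes. Its only relative, tI(UAU)L, differs from it by A119T, counted from 1 at the 5′ end of the gene.
tK(UUU)D: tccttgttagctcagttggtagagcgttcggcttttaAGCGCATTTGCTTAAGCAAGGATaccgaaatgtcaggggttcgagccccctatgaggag
tW(CCA)P: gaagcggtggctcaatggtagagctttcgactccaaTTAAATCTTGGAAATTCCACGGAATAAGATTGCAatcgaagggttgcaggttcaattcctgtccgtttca
tI(UAU)D: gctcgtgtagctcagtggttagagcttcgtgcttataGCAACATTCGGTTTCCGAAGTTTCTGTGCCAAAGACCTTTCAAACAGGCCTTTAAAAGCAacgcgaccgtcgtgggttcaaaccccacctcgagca
The next 3 have no intron and are tG(GCC)E (chrV:61890-61960, minus strand, 16 identical genes), tE(UUC)K (chrXI:141018-141089, minus strand, 13 identical genes) and tR(CCG)L (chrXII:818609-818680, plus strand, the only gene of its sequence).
tG(GCC)E: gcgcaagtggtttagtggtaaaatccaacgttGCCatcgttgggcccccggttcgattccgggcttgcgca
tE(UUC)K: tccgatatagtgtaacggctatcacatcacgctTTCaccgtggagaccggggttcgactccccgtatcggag
tR(CCG)L: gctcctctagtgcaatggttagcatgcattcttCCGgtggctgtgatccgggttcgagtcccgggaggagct
The last 2 are the mitochondrial genes with the most reads, tV(UAC)Q (chrM:78533-78608, plus strand) and tS(UGA)Q2 (chrM:48201-48290, plus strand).
tV(UAC)Q: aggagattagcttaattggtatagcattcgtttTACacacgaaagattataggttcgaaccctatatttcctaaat
tS(UGA)Q2: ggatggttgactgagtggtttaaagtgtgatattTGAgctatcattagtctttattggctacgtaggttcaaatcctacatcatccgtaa

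These repeats limit what a row can mean. In RefSeq the 275 nuclear tRNA genes hold 56 different mature sequences of 71 to 100 bases, 254 genes share their mature sequence with another gene and 242 are identical to another gene over their whole length, intron included. How reads that fit several copies were assigned, and whether strand was used, is not given in the sources used here, so a value for one copy of a repeated gene is uncertain. By chromosome letter and anticodon, 151 nuclear rows matched a single RefSeq gene, 123 matched several on the same chromosome, 23 mitochondrial rows matched, and tX(XXX)D and tT(XXX)Q2 did not. Identical copies were nonetheless given unlike counts. Among the 8 families of at least 5 identical genes with no copy at 0, the highest copy had 4.46 to 92.2 times the level of the lowest, with a median of 46.4, and 3 further families of that size had a copy at 0 in every library.

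The tRNA rows took a small share of each library. Library totals ran from 17244100 to 53642400 counts, and tRNA rows held 3279 to 18568 of them, 0.0133% to 0.0392% of the total, with 97 to 1194 counts on mitochondrial tRNA rows. The median over rows and libraries was 10 counts, 192 rows had a count in every library, and 12 rows, all nuclear, were at 0 in all 39. The expression filter passed 118 rows in all 8 comparisons and 73 in none. The label check held in the deletion: RRP6 had 727, 584 and 747 RPM (CPM by library total, with no further scaling) in the RRP6 libraries and 6.38, 5.17 and 5.24 in the rrp6Δ libraries. The rrp46-Q86I libraries held 75.1 to 95.8 RPM on RRP46 where their RRP46 controls held 489 to 531. In cultures, fewer cells with a given RNA and less of that RNA per cell cannot be told apart. Counts on a tRNA row may come from mature tRNA, from precursors or from other transcripts over the same bases. Which of these they are was not tested, so a tRNA level below means the counts on these rows.

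Levels are given below in adjusted CPM, which is CPM with the library totals corrected by TMM factors over the 39 libraries, or, for sums, in RPM. The nuclear rows had a median of 0.360 adjusted CPM and together held 186 adjusted CPM, and the 24 mitochondrial rows had a median of 0.193 and a sum of 13.3. Per kilobase of gene, the median level was 4.71 adjusted CPM for nuclear and 2.59 for mitochondrial rows. A few rows carried much of each sum. tW(CCA)P alone held 7.10% of the nuclear sum and the 10 highest rows 26.3%, while the mitochondrial valine row tV(UAC)Q held 32.7% of the mitochondrial sum and the 5 highest rows 68.6%. Ordered by level per kilobase over all libraries, tW(CCA)P came first with 125 adjusted CPM, followed by the lysine row tK(UUU)O with 60.5, tV(UAC)Q with 57.4, the leucine row tL(CAA)C with 50.4 and tK(UUU)D with 41.9.

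Genes with an intron held a larger share of the signal than of the rows. The 60 nuclear rows with an intron (14 to 60 bases long in RefSeq) were 21.8% of the nuclear rows and held 42.7% of the nuclear sum. Their median level per kilobase was 7.30 adjusted CPM, against 3.88 for the 214 rows without one. By amino acid, the summed nuclear level was 25.3 adjusted CPM for lysine, 18.2 for leucine, 16.9 for tryptophan, 14.8 for valine, 13.3 for serine, 13.0 for glycine and 12.7 for arginine, and the lowest was 1.04 for cysteine. These sums do not follow gene number alone, since the 6 tryptophan rows held more than the 21 glycine rows, and tW(CCA)P made up 13.2 of their 16.9.

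The summed nuclear tRNA level was higher in rrp6Δ, rrp40-W195R and rrp4-G226D than in their controls, in every library. It was 184, 214 and 186 RPM in RRP6 and 358, 345 and 387 in rrp6Δ, a ratio of means of 1.87. It was 125, 131 and 125 in RRP40 and 261, 217 and 236 in rrp40-W195R, a ratio of 1.88. It was 176, 179 and 169 in RRP4 and 268, 244 and 244 in rrp4-G226D, a ratio of 1.44. These 3 pairs of groups did not overlap. The size depended on the scale: in adjusted CPM, which sets the bulk of features equal between groups, the ratios were 1.222, 1.51 and 1.14. The rrp40-S87A libraries held 138, 135 and 139 RPM, a ratio of 1.08, and 1.03 in adjusted CPM. The other mutants overlapped their controls in RPM, with 0.843 for rrp46-L127T, 0.936 for rrp46-L191H, 0.966 for rrp46-Q86I and 1.03 for rrp45-I15P. In adjusted CPM rrp46-L191H lay below its controls in every library, with 177 ± 9.95 against 213 ± 20.5 and a ratio of 0.834. On that scale RRP46 had the highest mean of the control groups and RRP40 the lowest, 149. RRP4 had 180, RRP6 179 and RRP45 157, so rrp46-L191H lay within the range of the other control means. The rrp40-W195R mean, 225, lay above all control means. In rrp46-L127T the 3 libraries ran from 128 to 201 RPM, the widest spread of any group.

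**Figure D1:**
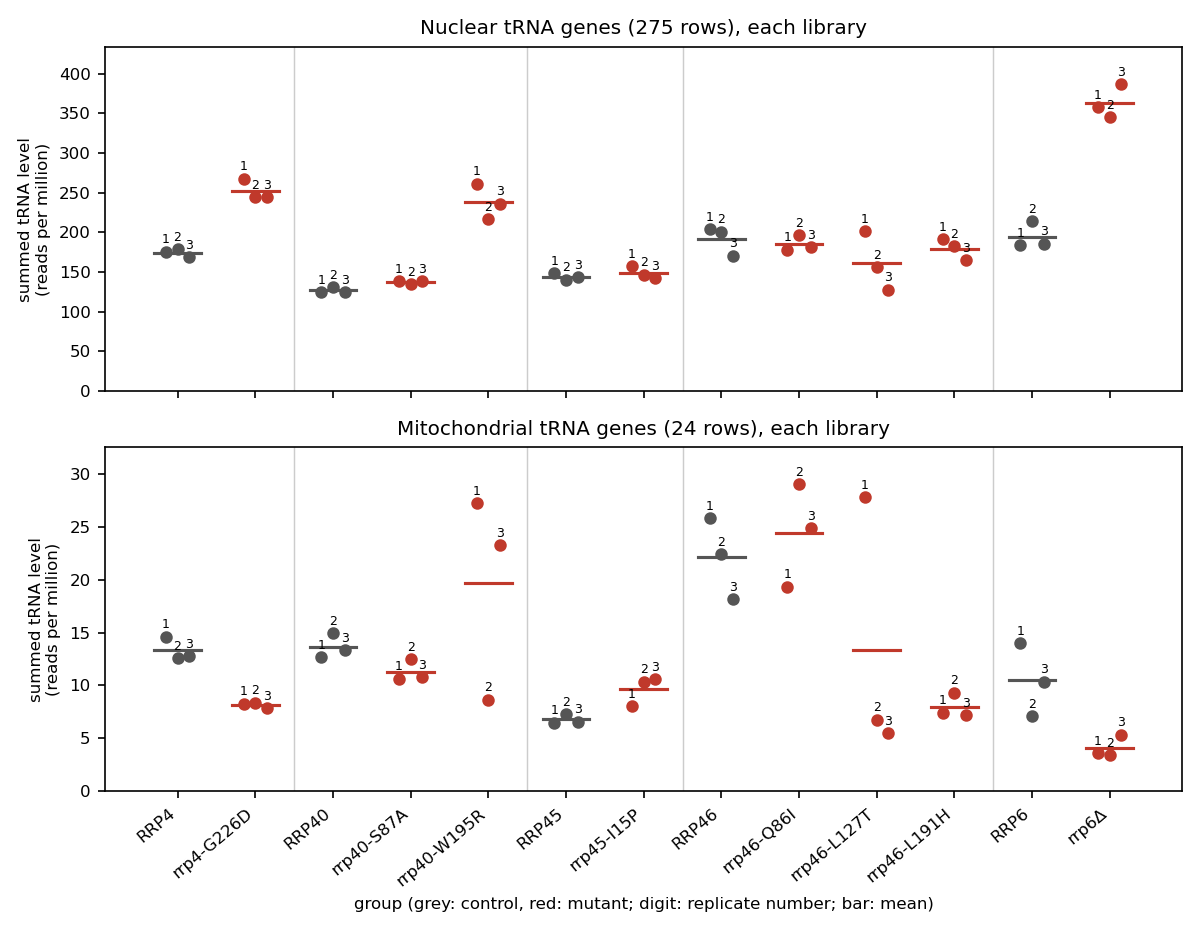
Summed level of the 275 nuclear rows (upper panel) and the 24 mitochondrial rows (lower panel) in RPM, for each of the 39 libraries; digits are replicate numbers, bars are group means, grey marks controls and red mutants. The rrp6Δ, rrp40-W195R, rrp4-G226D and, by a small margin, rrp40-S87A libraries lie above all of their controls for nuclear tRNA; for mitochondrial tRNA the rrp45-I15P libraries lie above all of theirs and the rrp6Δ, rrp4-G226D, rrp46-L191H and, by a small margin, rrp40-S87A libraries lie below.

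Single rows were tested with edgeR's quasi-likelihood test over all features, and calls were made where the p adjusted by Benjamini-Hochberg was below 0.05. Rows that passed the expression filter are not all tRNA genes, and those that passed through the higher group alone had to differ, so counts over them describe and do not test. In rrp6Δ, 203 of the 275 nuclear rows were tested, 97 rose and 34 fell, with 25 of the 203 passing through 1 group alone. In that comparison 83.5% of all features were called, 42.6% higher and 40.9% lower, so the 47.8% of tested nuclear tRNA rows called higher is near the background and the 16.7% called lower is below it. The median log2 fold change was 0.55 over the tested nuclear rows and 0.03 over all features. In rrp4-G226D, 176 were tested (10 through 1 group alone), 61 rose and 28 fell, against 71.9% of all features called, 36.1% higher and 35.9% lower. The nuclear shares were 34.7% and 15.9%, and the median was 0.39 where all features had 0.02.

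In rrp40-W195R the calls went one way. Of 143 tested nuclear rows (12 through 1 group alone) 58 rose and 2 fell, 40.6% and 1.40%, against 52.5% of all features called, 26% higher and 26.5% lower. The median log2 fold change was 0.61, and 0.02 over all features. In rrp46-L191H they went mostly the other way: of 153 tested (8 through 1 group alone) 6 rose and 47 fell, 3.92% and 30.7%, against 62.4% of all features, 31.4% higher and 31% lower, with a median of -0.37 and 0.00 over all features. The other 4 mutants had few calls. rrp40-S87A had 2 higher and 2 lower of 116 tested (15.5% of all features called, 7.69% higher and 7.8% lower), rrp46-L127T had 0 higher and 2 lower of 156 (5.24% of all features called, 2.63% higher and 2.62% lower), and rrp46-Q86I (165 tested; 0.515% of all features called, 0.41% higher and 0.106% lower) and rrp45-I15P (145 tested; 0.0266% of all features called, 0.0266% higher and 0% lower) had 0. At an unadjusted p below 0.05, edgeR's test counted 10 nuclear rows for rrp45-I15P and 7 for rrp46-Q86I, in neither of which DESeq2 called a row, 16 for rrp46-L127T and 19 for rrp40-S87A.

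When libraries were scaled by their totals and not by TMM, the median over all features, as a log2 fold change, itself moved to 0.63 in rrp6Δ, 0.36 in rrp40-W195R, 0.35 in rrp4-G226D and 0.17 in rrp46-L191H. It moved to 0.27 for rrp40-W195R against rrp40-S87A and to 0.15 for the difference of effects described below. The split of nuclear and mitochondrial calls together then went from 97 higher and 41 lower to 141 and 16 in rrp6Δ, from 61 and 36 to 98 and 21 in rrp4-G226D, and from 2 and 2 to 5 and 2 in rrp40-S87A. In rrp46-L191H it stayed mostly lower, with 10 higher and 46 lower.

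**Figure D2:**
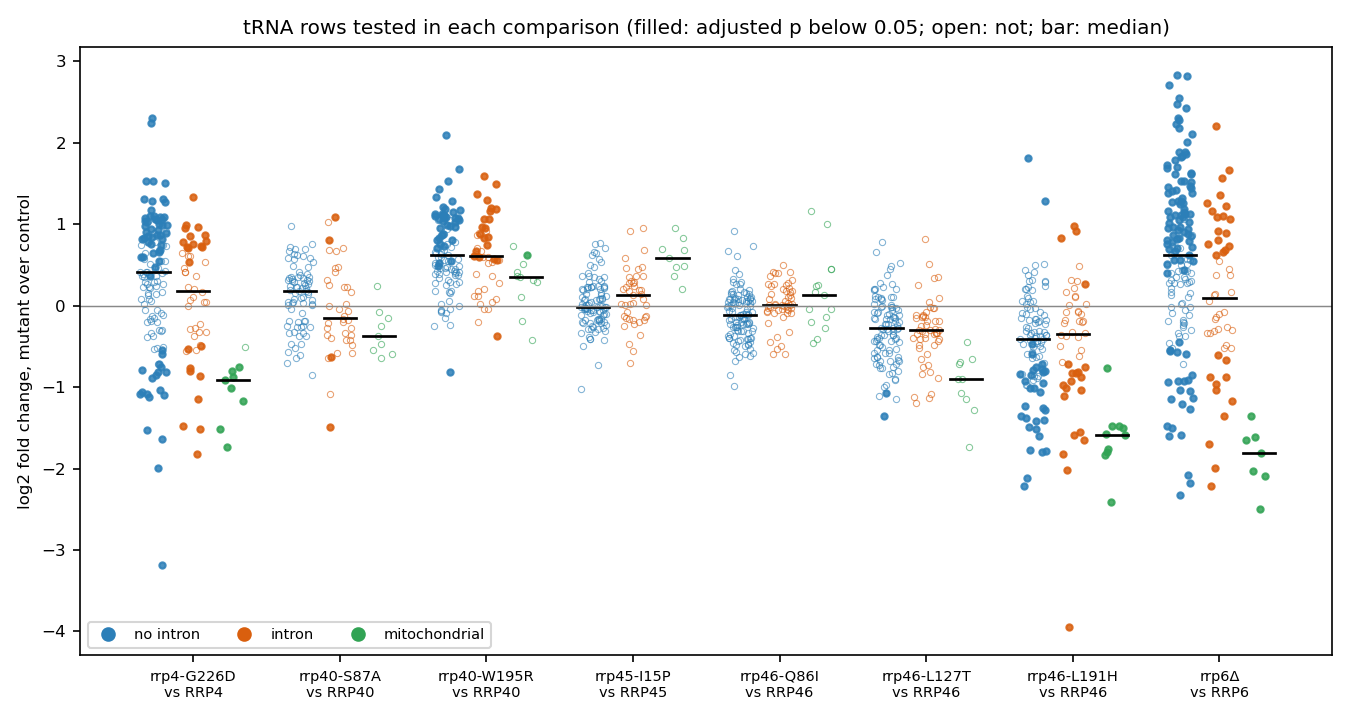
Log2 fold change, mutant over control, of each tRNA row tested in the 8 comparisons, for nuclear rows without an intron, nuclear rows with an intron and mitochondrial rows; filled points have an adjusted p below 0.05, open points do not, and bars are medians. Medians without and with an intron are 0.63 and 0.09 in rrp6Δ, 0.62 and 0.61 in rrp40-W195R and -0.41 and -0.35 in rrp46-L191H, and the mitochondrial medians in rrp6Δ and rrp46-L191H are -1.80 and -1.58.

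In rrp6Δ, which lacks the nuclear 3′ exonuclease Rrp6, the largest rises by the naming rule (called, at least 1 CPM over the 6 libraries, groups not overlapping) were in an aspartate, a histidine, a valine, a glycine and a leucine row. The aspartate row tD(GUC)J3 had 0.37, 0.46 and 0.21 adjusted CPM in RRP6 and 1.63, 1.75 and 2.43 in rrp6Δ. The histidine row tH(GUG)K had 0.65, 0.62 and 0.35 and then 2.87, 2.38 and 2.55. Every rrp6Δ library was above every control for both, with a log2 fold change of 2.54 (SE 0.27, adjusted p = 2.04e-07) for the first and 2.28 (SE 0.21, adjusted p = 3.63e-08) for the second. The valine row tV(AAC)J rose from 0.79 ± 0.18 to 2.86 ± 0.13 (SD, n = 3; log2 1.87), and the leucine row tL(CAA)K, which has an intron, rose from 0.57 ± 0.12 to 1.76 ± 0.26 (log2 1.67).

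The glycine row tG(GCC)E, printed above, had 1.09, 1.47 and 1.49 adjusted CPM in RRP6 and 4.57, 3.88 and 4.42 in rrp6Δ. All 3 mutant libraries lay more than 2 adjusted CPM above the controls, and the log2 fold change was 1.70 (SE 0.15, adjusted p = 2.45e-08). Its identical copy tG(GCC)P1 went the other way. It had 1.48, 2.55 and 1.62 adjusted CPM in RRP6 and 0.43, 0.38 and 0.40 in rrp6Δ, so the groups were again apart, and the log2 fold change was -2.17 (SE 0.24, adjusted p = 4.05e-07). Of the other falls, the threonine row tT(AGU)C had 1.74 ± 0.38 adjusted CPM in RRP6 and then 0.40, 0.40 and 0.42, with no overlap and a log2 fold change of -2.08 (SE 0.22, adjusted p = 2.18e-07).

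The lysine family tK(UUU) has 7 genes with the same mature tRNA, 6 of them identical with their intron. The other gene, on chromosome VII (chrVII:700953-701048), carries the substitution C42T, counted from 1 at the 5′ end of the gene, which lies in the intron. In rrp6Δ 5 of the 7 rows fell. tK(UUU)D had 3.18, 3.60 and 3.67 adjusted CPM in RRP6 and 0.87, 0.67 and 1.02 in rrp6Δ, without overlap, for a log2 fold change of -1.99 (SE 0.17, adjusted p = 1.53e-08). tK(UUU)P fell by 1.35 on the log2 scale, tK(UUU)O by 0.96, tK(UUU)K by 0.88 and tK(UUU)L by 0.87. The 2 rows on chromosome VII, tK(UUU)G1 and tK(UUU)G2, rose by 0.69 (adjusted p = 0.0295, groups overlapping) and 0.65 (adjusted p = 0.023). Their mean levels in RRP6 were 0.48 and 0.66 adjusted CPM, below those of the 5 rows that fell, which lay between 2.13 and 5.19. Which of the 2 is the gene with the substitution was not resolved.

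**Figure D3:**
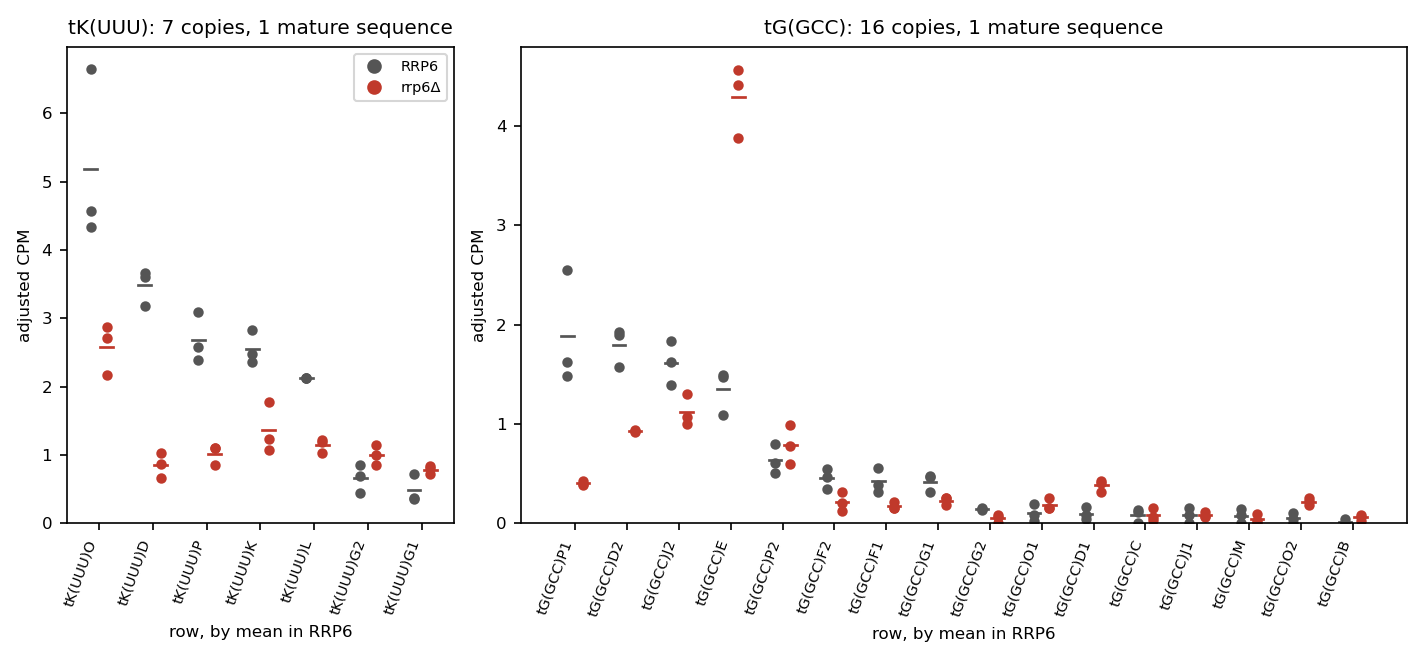
Adjusted CPM of each copy of tRNA families with a shared mature sequence in the 3 RRP6 libraries (grey) and the 3 rrp6Δ libraries (red), ordered by mean in RRP6; bars are means. In the tK(UUU) family 5 copies are lower in rrp6Δ and 2 are higher, and in the tG(GCC) family tG(GCC)E is higher and tG(GCC)P1 lower.

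Copies went in opposite directions in other families too. Of 18 families of at least 2 genes identical over the whole gene, 5 held both a copy that rose and a copy that fell in rrp6Δ (glycine GCC, threonine AGU, asparagine GUU, alanine AGC and isoleucine AAU). In rrp4-G226D there were 5 such families (glycine GCC, threonine AGU, asparagine GUU, tryptophan CCA and histidine GUG), in rrp46-L191H 2 (glycine GCC and arginine UCU), and in rrp40-W195R none. Of the 28 nuclear rows matched to a gene whose whole sequence occurs once, 11 rose and 3 fell of 22 tested in rrp6Δ, 11 and 3 of 23 in rrp4-G226D, 9 and 0 of 21 in rrp40-W195R, and 1 and 13 of 22 in rrp46-L191H. Of all features 42.6% were higher and 40.9% lower in the first, 36.1% and 35.9% in the second, 26% and 26.5% in the third, and 31.4% and 31% in the last.

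Rows without and with an intron were also counted apart, against 42.6% of all features higher and 40.9% lower in rrp6Δ. In rrp6Δ, of the rows without an intron 78 rose and 23 fell of 152 tested (median log2 fold change 0.63), and of those with an intron 18 rose and 11 fell of 50 (median 0.09). The summed level of the rows without an intron was 2.13 ± 0.21 times that of RRP6 in RPM and 1.39 ± 0.12 times in adjusted CPM. For the rows with an intron it was 1.45 ± 0.17 times in RPM and 0.95 ± 0.10 times in adjusted CPM, where the groups overlapped, so a direction for that group depends on the scale. In rrp4-G226D the medians were 0.41 without and 0.19 with an intron. In rrp40-W195R they were 0.62 and 0.61, and in rrp46-L191H -0.41 and -0.35. The difference between the intron classes was not tested.

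By amino acid, with 42.6% of all features higher and 40.9% lower as background, the most falls in rrp6Δ were in threonine, where 7 of 10 tested rows fell and 1 rose, glycine, where 6 fell and 7 rose of 14, and lysine, where 5 fell and 8 rose of 16. Rises outnumbered falls for valine (11 of 17 tested, 1 lower), alanine (8 of 11, 2 lower), aspartate (7 of 10, none lower), glutamine (6 of 8, none lower), leucine (8 of 19, 1 lower) and serine (8 of 15, 1 lower), among others. Summed by amino acid in adjusted CPM, 13 of 20 were above the controls in every library and 3 below (glutamate, lysine and threonine). The 20 sums come from the same libraries and are not 20 separate observations. No share of all features without overlap is given beside such counts, here or for the mutants below, so they are a description. Glutamine rose most, from 2.91 ± 0.40 to 5.74 ± 0.86 adjusted CPM, and threonine was lowest, from 10.1 ± 0.80 to 7.06 ± 0.27. In RPM, all 20 means were higher in rrp6Δ, 18 without overlap, so the lower sums of those 3 amino acids hold on the adjusted scale only.

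In rrp4-G226D, where a glycine of the cap subunit Rrp4 is aspartate, 61 nuclear rows rose and 28 fell. Its calls were set beside those of rrp6Δ, with which it shares no control library. Of the 89 nuclear rows called in rrp4-G226D, 64 (71.9%) were also called in rrp6Δ, and these were 48.9% of the 131 called there. Since 64.5% of all tested nuclear rows were called in rrp6Δ and 50.6% in rrp4-G226D, the number of shared rows is near what those shares give and is not a result. In 46 both rose, in 16 both fell and in 2 the directions were opposite. Across the 173 nuclear rows tested in both, the log2 fold changes had a Pearson correlation of 0.70, against 0.87 across 7504 other features. These points share libraries and genes are not independent, so the value is a description.

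The glutamate row tE(UUC)K had the largest fall by the naming rule in rrp4-G226D. It had 3.03, 3.89 and 3.79 adjusted CPM in RRP4 and 0.83, 0.78 and 1.14 in rrp4-G226D, with a wide gap between the groups and a log2 fold change of -1.998 (SE 0.17, adjusted p = 2.65e-09). The phenylalanine row tF(GAA)P1, with an intron, had 2.02, 2.95 and 1.52 and then 0.66, 0.58 and 0.59 adjusted CPM (log2 -1.82, SE 0.25, adjusted p = 3.09e-06), and tT(AGU)C fell by 1.03 on the log2 scale. The largest rises were in the serine row tS(AGA)B, with 1.01, 1.00 and 1.21 adjusted CPM in RRP4 and 3.15, 2.57 and 2.23 in rrp4-G226D (log2 1.28, SE 0.18, adjusted p = 3.09e-06), and in the methionine row tM(CAU)O2 (0.75 ± 0.18 to 1.62 ± 0.09, log2 1.10). tG(GCC)E, tV(AAC)G3 and tH(GUG)K rose by 1.10, 1.09 and 1.06. Threonine again had more falls than rises, 6 against 2 of 11 tested, and so did phenylalanine, 4 against 1 of 8. Leucine had 7 rises and no fall of 16. In adjusted CPM the amino acid sums of glutamate, phenylalanine and threonine lay below all controls, and 12 lay above. In RPM, 16 lay above and none below.

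In rrp40-W195R, where a tryptophan of the cap subunit Rrp40 is arginine, a called rise was found for 17 of the 19 amino acids with a tested row. Phenylalanine (7 tested) and methionine (5 tested) had no called row, and cysteine had no tested row. The summed mean was higher for all 20 amino acids on both scales, without overlap for 18 in adjusted CPM and for 20 in RPM, and the log2 ratio in adjusted CPM ran from 0.16 for glutamate to 1.25 for cysteine. tG(GCC)E had 1.53, 1.19 and 1.18 adjusted CPM in RRP40 and 3.95, 3.48 and 2.76 in rrp40-W195R, with no overlap (log2 1.33, SE 0.20, adjusted p = 0.000274). tR(CCG)L, the arginine gene with no copy, had 0.77, 0.94 and 0.59 and then 2.30, 1.68 and 1.62, again apart (log2 1.28, SE 0.25, adjusted p = 0.00127). The serine row tS(GCU)F, the glutamate row tE(UUC)E2 and the alanine row tA(AGC)H rose by 1.19, 1.16 and 1.13. Against this, tE(UUC)K had 2.72, 4.46 and 2.96 adjusted CPM in RRP40 and 1.95, 2.04 and 1.77 in the mutant (log2 -0.82, SE 0.20, adjusted p = 0.00627). The second fall, of tK(UUU)P (log2 -0.37, adjusted p = 0.0384), was lost in most alternative settings, with adjusted p from 0.0398 to 0.817. The number of tRNA calls also rested on single libraries: 61 in all, it was 36 without rrp40-W195R replicate 1 and 39 without RRP40 replicate 1.

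The rrp40-S87A strain carries the other Rrp40 change, serine to alanine, and shares its controls with rrp40-W195R. Its 4 calls, 3.45% of the 116 tested nuclear rows where 15.5% of all features were called, were all in intron genes. Of the tested nuclear rows 38 had an intron. Leaving out 1 library gave 2 to 5 tRNA calls, so the intron class of these few rows is a description. tI(UAU)D had 2.04, 1.93 and 2.41 adjusted CPM in RRP40 and 5.08, 2.77 and 3.15 in rrp40-S87A, above all controls (log2 0.81, SE 0.22, adjusted p = 0.0304). In rrp40-W195R it had 5.36, 3.08 and 4.97 (log2 1.07, SE 0.21, adjusted p = 0.00149). tK(UUU)P had 3.57, 3.42 and 3.75 in RRP40 and 2.36, 2.64 and 1.94 in rrp40-S87A (log2 -0.63, SE 0.15, adjusted p = 0.0138). The others, named because there were only 4, were tL(CAA)A (log2 1.09, adjusted p = 0.0211) and tF(GAA)F (log2 -1.496, adjusted p = 0.023), which passed the filter through the control group alone.

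Compared directly with rrp40-S87A, rrp40-W195R had 48 nuclear rows higher and 1 lower of 148 tested, where 38.8% of all features were called, 18.6% higher and 20.2% lower. The median log2 difference was 0.54, and 0.01 over all features. tG(GCC)E, at 1.16, 0.95 and 1.15 adjusted CPM in rrp40-S87A, was higher by 1.60 (SE 0.20, adjusted p = 0.00012). The valine row tV(AAC)M3 (1.26, 1.43 and 0.95 against 2.49, 2.64 and 2.98) was higher by 1.15 and the tyrosine row tY(GUA)M1 (0.93, 0.56 and 0.66 against 1.81, 1.44 and 1.44) by 1.09. The single lower row was tE(UUC)K, at 2.82, 3.98 and 3.71 in rrp40-S87A (log2 difference -0.89, SE 0.18, adjusted p = 0.0022). The total of 50 calls, mitochondrial included, fell to 26 without rrp40-S87A replicate 3 and 27 without rrp40-W195R replicate 1, and rose to 66 without rrp40-W195R replicate 2.

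**Figure D4:**
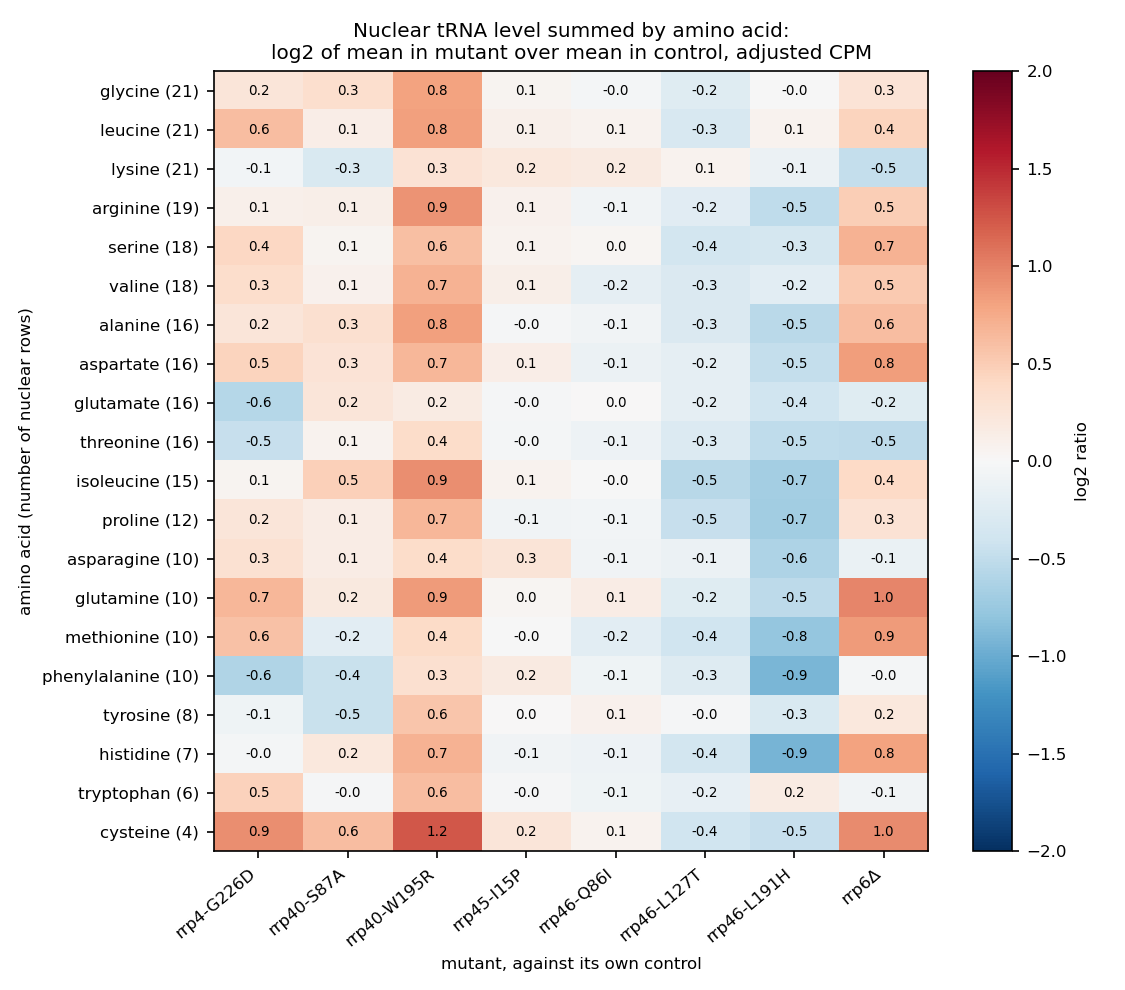
Log2 ratio of the mean nuclear tRNA level, mutant over its own control, summed by amino acid in adjusted CPM for the 8 mutants; the number of nuclear rows is given beside each amino acid and colour gives the ratio. The rrp40-W195R column is above 0 for all 20 amino acids, the rrp46-L191H column is below 0 for 18, and the rrp6Δ and rrp4-G226D columns hold both signs.

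In rrp46-L191H, where a leucine of the core ring subunit Rrp46 is histidine, 47 of the 53 called nuclear rows fell. The share of tested rows that fell, 30.7%, is that of all features, 31%, and the share that rose, 3.92%, is below theirs, 31.4%. In adjusted CPM 18 of the 20 amino acid means were lower, 13 without overlap, histidine most (5.66 ± 0.19 to 2.98 ± 0.37 adjusted CPM). In RPM, 16 were lower, 11 without overlap, and leucine and tryptophan lay above all controls. Among the named falls, the glycine row tG(CCC)O had 1.82, 1.06 and 2.15 adjusted CPM in RRP46 and 0.35, 0.63 and 0.66 in rrp46-L191H (log2 -1.60, SE 0.32, adjusted p = 0.000729). The proline row tP(UGG)O3 had 2.03, 1.78 and 1.80 and then 0.63, 0.57 and 0.70 (log2 -1.56, SE 0.20, adjusted p = 1.73e-05). In both rows all mutant libraries lay under all controls. The histidine row tH(GUG)G2 fell by 1.79 and the arginine row tR(UCU)K by 1.49. tI(UAU)D, with 8.98, 7.70 and 8.84 in RRP46 and 4.76, 4.13 and 4.57 in the mutant, fell by 0.93 (SE 0.10, adjusted p = 6.23e-06), and tR(CCG)L fell by 0.79 with overlapping groups.

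The 6 rises in rrp46-L191H included tG(GCC)E, tL(CAA)C and tW(CCA)P, which rose in other mutants too. tG(GCC)E had 1.91, 1.64 and 1.58 adjusted CPM in RRP46 and 6.07, 5.96 and 5.94 in rrp46-L191H. Every mutant library was above every control (log2 1.81, SE 0.12, adjusted p = 9.06e-08). tL(CAA)C had 7.30, 6.35 and 6.80 and then 11.6, 11.99 and 12.8, without overlap (log2 0.83, SE 0.09, adjusted p = 2.8e-06). It rose also in rrp4-G226D (log2 0.72) and rrp40-W195R (0.97), and was 0.15 in rrp6Δ (adjusted p = 0.213). This gene lies 352 bases from LEU2 on the same strand, and LEU2 is the plasmid marker. LEU2 had 2111 to 2322 RPM in RRP46 and 3849 to 4464 in rrp46-L191H, while in rrp4-G226D it was lower (995 to 1074) than in RRP4 (1450 to 1491). Its part in the result was not tested. tW(CCA)P had 14.4, 15.4 and 12.2 adjusted CPM in RRP46 and 17.4, 17.3 and 15.7 in the mutant (log2 0.26, SE 0.09, adjusted p = 0.0198). Its log2 fold change was 0.54 in rrp4-G226D, 0.60 in rrp40-W195R and -0.16 (adjusted p = 0.124) in rrp6Δ, where library totals turned it to 0.44. The other rises, chosen for mention after their values were seen, were tR(UCU)M2 (log2 1.28), tP(UGG)L (0.97) and tL(CAA)M (0.92).

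The other RRP46 alleles showed little. In rrp46-L127T, with a leucine changed to threonine, the calls were tR(UCU)K, with 1.62, 1.92 and 1.65 adjusted CPM in RRP46 and 1.03, 0.85 and 0.66 in the mutant (log2 -1.07, SE 0.23, adjusted p = 0.0232), and tA(AGC)P (log2 -1.35, adjusted p = 0.0288). The median over the nuclear rows was -0.29, and 19 of 20 amino acid means were lower, 4 without overlap. These means share their libraries, so the counts are a description. rrp46-L127T replicate 1 stood apart from the other 2 libraries in nuclear and mitochondrial tRNA, and without it 24 tRNA rows were called. In rrp46-Q86I (glutamine to isoleucine) and rrp45-I15P (isoleucine of Rrp45 to proline) the nuclear medians were -0.04 and 0.02, and no row was called.

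The effects of rrp40-W195R and rrp46-L191H, which share no library, were compared in 1 fit over their 12 libraries. The difference of effects was called for 79 nuclear rows, all higher in rrp40-W195R, of 173 tested, and for none lower, where 34.5% of all features were called, 16.6% higher and 18% lower. Its median was 1.16 over the nuclear rows and 0.01 over all features. tP(UGG)O3 had 0.51, 0.60 and 0.32 adjusted CPM in RRP40 and 1.76, 1.00 and 1.24 in rrp40-W195R, a rise, where rrp46-L191H fell. The difference was 3.08 (SE 0.36, adjusted p = 2.05e-05). tR(UCU)K (0.69 ± 0.28 to 1.44 ± 0.31 in the first pair, 1.73 ± 0.17 to 0.61 ± 0.21 in the second) differed by 2.60 (SE 0.39, adjusted p = 0.000141). tI(UAU)D and tR(CCG)L, which rose in the first and fell in the second, differed by 2.03 and 2.102. The RRP46 controls began higher: tI(UAU)D had 8.50 ± 0.70 adjusted CPM in RRP46 and 2.13 ± 0.25 in RRP40, tP(UGG)O3 1.87 ± 0.14 and 0.47 ± 0.14, and tR(CCG)L 1.96 ± 0.50 and 0.77 ± 0.18. Of the 60 nuclear rows called in rrp40-W195R and the 53 called in rrp46-L191H, 21 were called in both, 35% and 39.6%, and 17 of these went in opposite directions. Of all tested nuclear rows 34.6% were called in rrp46-L191H and 41.96% in rrp40-W195R, so the overlap is near these shares, and most calls were rises in the first mutant named and falls in the second. Across 135 nuclear rows tested in both, the fold changes had a correlation of 0.01, against 0.58 across 7321 other features, as a description.

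**Figure D5:**
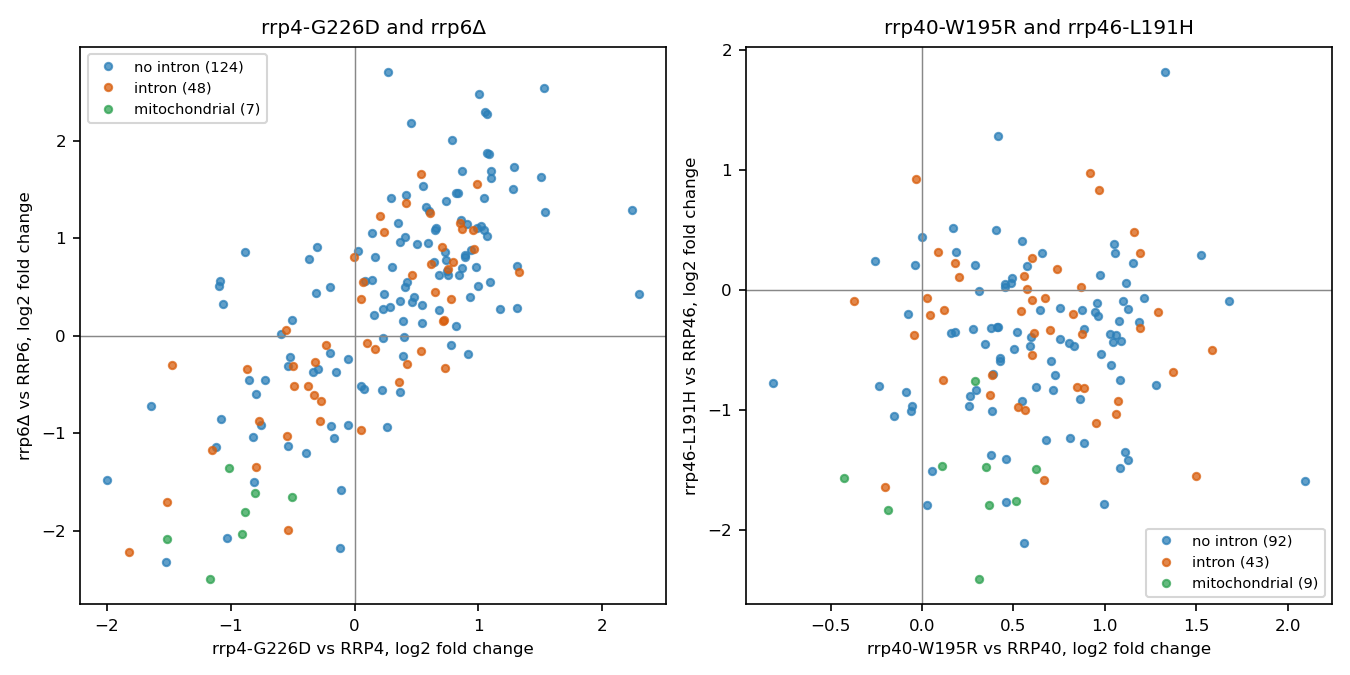
Log2 fold changes of tRNA rows in 2 pairs of mutants that share no control: rrp4-G226D against rrp6Δ (left) and rrp40-W195R against rrp46-L191H (right), with nuclear rows without and with an intron and mitochondrial rows marked and the number of each in the key. Nuclear rows follow a rising trend on the left (correlation 0.70) and none on the right (0.01), where many rows lie above 0 on one axis and below on the other.

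Over the 8 comparisons of a mutant with its control, 18 nuclear rows rose in at least 3 and 9 fell in at least 3. A rise in some and a fall in others was found for 33. In the mutants with most calls, 52.5% to 83.5% of all features were called, so repeated calls are common. Shares of all features under these same rules were not computed, so the 3 counts over the 8 comparisons are a description. tG(GCC)E rose in 4 and was -0.26, -0.11, -0.17 and -0.01 in rrp40-S87A, rrp45-I15P, rrp46-Q86I and rrp46-L127T, none of them called. tE(UUC)K fell in the same 4 mutants, by 1.998 in rrp4-G226D, 1.48 in rrp6Δ, 0.82 in rrp40-W195R and 0.78 in rrp46-L191H on the log2 scale. tR(CCG)L rose in rrp4-G226D (0.66), rrp40-W195R (1.28) and rrp6Δ (1.11) and fell in rrp46-L191H. tI(UAU)D rose in both RRP40 alleles and fell in rrp46-L191H and rrp6Δ (-0.67, adjusted p = 0.000153). The fold changes of tRNA rows were set beside those of neighbouring protein-coding genes, as a description. Across the rows with a single matched gene, the correlation between a row's fold change and that of its nearest coding gene ran from -0.33 to 0.23 over the 8 comparisons on the same strand (n from 41 to 61) and from -0.08 to 0.13 on the opposite strand (n from 26 to 47). For genes upstream on the same strand within 1 kb it ran from -0.63 to 0.25 (n from 16 to 26). Both lowest same-strand values were in rrp46-L127T (-0.33 with n = 53 and -0.63 with n = 20), and the same-strand upstream values of the other 7 comparisons ran from -0.21 to 0.25.

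Mitochondrial tRNA rows fell in 3 mutants. Their sum was 14.0, 7.11 and 10.4 RPM in RRP6 and 3.62, 3.41 and 5.35 in rrp6Δ, a ratio of 0.393. It was 25.8, 22.4 and 18.2 in RRP46 and 7.44, 9.31 and 7.22 in rrp46-L191H, a ratio of 0.361. It was 14.6, 12.6 and 12.8 in RRP4 and 8.29, 8.37 and 7.83 in rrp4-G226D, a ratio of 0.613. No mutant library in these pairs reached a control library, and in adjusted CPM the ratios were 0.256, 0.322 and 0.483. In RPM, RRP46 had the highest mean of the control groups, 22.1, where the others ran from 6.79 (RRP45) to 13.6 (RRP40). The rrp46-L191H mean, 7.99, and the rrp4-G226D mean, 8.16, lay within the range of the other control means. The rrp6Δ mean, 4.12, lay below all control means. In adjusted CPM the rrp4-G226D mean, 6.62, also lay below the lowest control mean, 7.42 in RRP45, and rrp46-L191H, 7.90, did not. All 7 tested rows fell in rrp6Δ, all 10 in rrp46-L191H and 8 of 9 in rrp4-G226D, with median log2 fold changes of -1.80, -1.58 and -0.91, where 40.9%, 31% and 35.9% of all features were called lower. Of these rows 2, 1 and 1 passed the filter through 1 group alone, so they had to differ. Of the 24 rows, most had too few counts to be tested.

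tV(UAC)Q, which reads valine codons in the organelle, had 3.96, 1.78 and 2.90 adjusted CPM in RRP6 and 0.47, 0.58 and 1.00 in rrp6Δ, below all controls (log2 -2.04, SE 0.32, adjusted p = 0.000233). In RRP46 it had 10.4, 8.95 and 5.22 and in rrp46-L191H 2.22, 2.87 and 2.03 (log2 -1.76, SE 0.30, adjusted p = 0.00182). In RRP4 it had 4.51, 4.05 and 4.37 and in rrp4-G226D 2.54, 2.07 and 2.25 (log2 -0.91, SE 0.13, adjusted p = 2.55e-06). The serine row tS(UGA)Q2 fell by 2.09, 1.47 and 1.51 in the same order, and the methionine row tM(CAU)Q2 by 2.49, 1.48 and 1.17. The lysine row tK(UUU)Q fell by 1.62, 1.499 and 0.80. In rrp46-L191H the glutamine row tQ(UUG)Q had 0.32, 0.29 and 0.59 adjusted CPM where RRP46 had 1.62, 1.08 and 1.46 (log2 -1.84, SE 0.29, adjusted p = 0.000126).

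The remaining mutants were mixed. rrp40-S87A had 10.6, 12.5 and 10.8 RPM against 12.7, 14.9 and 13.3 in RRP40, lower in every library with a ratio of 0.829. rrp40-W195R had 27.2, 8.66 and 23.3 RPM against the same controls, so replicate 2 was low and the others high. tK(UUU)Q was the only called row of 11 (log2 0.62, adjusted p = 0.0454). rrp46-L127T had 27.8, 6.76 and 5.47, with replicate 1 above all controls and the others below them all, and none of 10 rows was called. The ratio of means was 0.603 and became 0.276 without replicate 1. In rrp45-I15P the sum was 8.03, 10.4 and 10.6 against 6.48, 7.31 and 6.59 in RRP45, higher in every library, with no called row of 9 and 5 at an unadjusted p below 0.05. Neither rrp40-S87A (9 tested, 3 at an unadjusted p below 0.05) nor rrp46-Q86I (15 tested, 2) had a called mitochondrial row. In the difference of effects between rrp40-W195R and rrp46-L191H 6 of 14 mitochondrial rows were called higher, tV(UAC)Q by 2.31 (SE 0.59, adjusted p = 0.0148).

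Other short or mitochondrial RNAs are given beside these values. The U6 spliceosomal RNA snR6, another RNA polymerase III product, had 255, 190 and 190 RPM in RRP46, 139, 124 and 125 in rrp46-L191H and 175, 135 and 103 in rrp46-L127T. In rrp40-W195R it had 220, 124 and 232, with replicate 2 low as for mitochondrial tRNA, against 41.1, 45.2 and 34.6 in RRP40. In rrp6Δ it was higher (187, 142 and 156) than in RRP6 (64.9, 95.3 and 104), opposite to mitochondrial tRNA. After rRNA depletion, mitochondrial rRNA took 2.91%, 1.73% and 1.70% of counts in rrp46-L127T and 2.63% to 2.94% in RRP46. It took 2.07% to 2.69% in RRP6 and 1.995% to 2.48% in rrp6Δ. Mitochondrial protein rows took 0.894% to 1.05% of counts in rrp6Δ and 1.08% to 1.13% in RRP6. The part of short-RNA recovery or of mitochondrial content in the tRNA results was not tested.

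Genes for tRNA synthesis and use were read from lists chosen by function, some of which share members (snR6 and a 5S rRNA row stand in more than 1). Their counts are read against the share of all features called, which was 42.6% higher and 40.9% lower in rrp6Δ, 36.1% and 35.9% in rrp4-G226D, 31.4% and 31% in rrp46-L191H, and 26% and 26.5% in rrp40-W195R. Most features were called in rrp6Δ and rrp4-G226D, so that most members of a list were called there is not a result. Only the split between directions is given, as a description. List counts and fold changes, here and below, are on the TMM scale and were not read with library totals. Library totals moved the all-feature median upward, as given above. The polymerase III subunit medians (log2 -0.65 in rrp6Δ and -0.32 in rrp4-G226D) are about the size of that move, so their direction may depend on the scale. The cytoplasmic aminoacyl-tRNA synthetases, which charge tRNAs, fell as a whole list: 21 of 21 in rrp6Δ (median log2 fold change -1.10), in rrp4-G226D (-0.66) and in rrp40-W195R (-0.50), and 15 of 21 in rrp46-L191H, where 2 rose. CDC60, the leucine synthetase, fell by 1.27, 0.81, 0.67 and 0.37 in that order, and WRS1, the tryptophan synthetase, by 1.11, 0.75, 0.33 and 0.26. None of the 21 was called in rrp40-S87A, rrp46-Q86I, rrp46-L127T or rrp45-I15P. RNA polymerase III subunits fell in rrp6Δ (17 of 17) and rrp4-G226D (16 of 17), while 10 rose and 2 fell in rrp46-L191H and 5 rose and 3 fell in rrp40-W195R. RPB8, a subunit shared by the 3 nuclear polymerases, fell by 1.47 in rrp6Δ, and RPC34, specific to polymerase III, rose by 0.76 in rrp46-L191H. Of the 10 polymerase III factors, 2 rose and 4 fell in rrp6Δ, 1 and 6 in rrp4-G226D, 1 and 3 in rrp40-W195R and 2 and 5 in rrp46-L191H.

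Processing genes differed in direction between mutants on the TMM scale, though the differences were not tested and were not read with library totals. The median log2 fold change was -0.34 for end trimming and -0.51 for modification in rrp6Δ, and -0.12 and -0.27 in rrp4-G226D. These are smaller than the move of the all-feature median under library totals given above, so their direction may depend on the scale. The shares of all features called, given above, are the background to each count. Of 12 tested genes for end trimming and CCA addition, 2 rose and 9 fell in rrp6Δ, 2 and 7 in rrp4-G226D, 9 and 0 in rrp46-L191H, and 2 and 1 in rrp40-W195R. POP6, a protein of RNase P, rose in all 4 (log2 1.20, 0.92, 0.72 and 1.14), while LHP1, the yeast La protein that binds the 3′ end of precursors, fell by 1.06 in rrp6Δ, 0.33 in rrp40-W195R and 0.58 in rrp4-G226D and was 0.08 in rrp46-L191H (adjusted p = 0.101). Of 9 splicing and export genes, 1 rose and 7 fell in rrp6Δ, 0 and 5 in rrp4-G226D, 2 and 1 in rrp40-W195R and 4 and 1 in rrp46-L191H. Of 23 modification genes, 2 rose and 19 fell in rrp6Δ, 2 and 18 in rrp4-G226D, 14 and 2 in rrp40-W195R, and 19 and 0 in rrp46-L191H. TAD2, part of the enzyme that makes inosine at the anticodon, rose in all 4 (log2 0.92, 0.55, 0.49 and 0.99).

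Against the same background (83.5% of all features called in rrp6Δ, 62.4% in rrp46-L191H, 71.9% in rrp4-G226D and 52.5% in rrp40-W195R), the surveillance list, 10 genes that include RRP6 itself, had 2 higher and 8 lower in rrp6Δ, 1 and 7 in rrp4-G226D, 6 and 2 in rrp40-W195R and 8 and 1 in rrp46-L191H. TRF5, a poly(A) polymerase of TRAMP, rose in rrp6Δ (0.55), rrp40-W195R (0.88) and rrp46-L191H (0.93), and MET22, whose product protects the 5′-3′ exonucleases from inhibition, fell by 0.50 to 0.60 in all 4. Mitochondrial RNA synthesis and tRNA processing genes had 1 higher and 4 lower of 7 in rrp6Δ, 0 and 5 in rrp4-G226D, 1 and 4 in rrp40-W195R and 2 and 4 in rrp46-L191H, where RPM2, the protein of mitochondrial RNase P, fell by 0.52 (and by 1.00 in rrp40-W195R). Of the 14 mitochondrial synthetases, 7 rose and 1 fell in rrp6Δ, 2 and 8 in rrp4-G226D, 2 and 4 in rrp40-W195R and 1 and 6 in rrp46-L191H. On the TMM scale all 20 tested mitochondrial protein rows fell in rrp6Δ. Falls numbered 15 in rrp40-W195R, 11 in rrp40-S87A, 2 in rrp46-L127T and 15 in rrp4-G226D. The rrp46-L191H mutant had 11 falls and 1 rise. As a share of all counts, these rows had a mean of 1.09% in rrp4-G226D and 1.05% in RRP4. The mean was 1.00% in rrp46-L191H and 0.963% in RRP46, and both pairs of groups overlapped. In the other mutants named the mean share was lower than in the controls, in rrp6Δ 0.956% against 1.10%. The size of these falls, and in some mutants their direction, may therefore depend on the scale.

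Other untranslated RNAs serve as a comparison. Of the 5 tested polymerase III products other than tRNA, 1 rose and 2 fell in rrp6Δ, 3 and 1 in rrp4-G226D, 2 and 1 in rrp40-W195R and 1 and 3 in rrp46-L191H. SCR1, the RNA of the signal recognition particle, fell by 0.98 in rrp6Δ and 0.52 in rrp4-G226D, and by 0.36 in rrp46-L191H against 0.35 in rrp40-W195R. In RPM, SCR1 was also below all controls in rrp6Δ, rrp4-G226D and rrp46-L191H. In rrp40-W195R it overlapped its controls in RPM, with means of 37438 and 37860, so that fall depends on the scale. Of the small nucleolar and nuclear RNAs 42 rose and 25 fell of 80 in rrp6Δ, 39 and 19 of 80 in rrp4-G226D, 47 and 15 of 79 in rrp40-W195R and 37 and 21 of 79 in rrp46-L191H. In rrp6Δ and rrp4-G226D the share of these RNAs called is that of all features, 83.5% and 71.9%. Ribosomal RNA rows, 5 of them tested, had 4 lower in rrp6Δ, 4 lower and 1 higher in rrp4-G226D, 3 lower in rrp40-W195R and 4 lower in rrp46-L191H. The libraries were depleted of rRNA, so these rows hold what remained after depletion, and its part in the calls was not tested. Nuclear rRNA rows took 1.15% to 1.83% of counts within the rrp40-S87A group alone. In rrp40-S87A, where 15.5% of all features were called, 16 small nucleolar and nuclear RNAs rose and 12 fell of 78, 11 of 20 mitochondrial protein rows fell, and 8 modification genes rose and 1 fell of 23. In rrp46-L127T, where 5.24% of all features were called, 4 of 17 polymerase III subunits rose. In rrp45-I15P 1 rRNA row, 15S_rRNA, was called, and in rrp46-Q86I no member of any list was.

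The authors' deposited tables, at their own adjusted p below 0.05, list 75 nuclear tRNA rows higher and 31 lower in rrp6Δ, 44 and 20 in rrp4-G226D, 44 and 1 in rrp40-W195R and 6 and 41 in rrp46-L191H. In the authors' deposited tables, mitochondrial tRNA rows were lower for 14 in rrp6Δ, 7 in rrp4-G226D and 12 in rrp46-L191H. Of the nuclear rows in the authors' deposited tables, 102, 62, 41 and 44 were also called here in the same order. The authors' deposited tables list 1 higher and 1 lower nuclear row in rrp40-S87A, 1 lower in rrp46-L127T and none in rrp46-Q86I and rrp45-I15P. Only part of the nuclear rows listed there have an adjusted p. These were 16 of 247 in rrp40-S87A, 8 of 252 in rrp46-L127T, 62 of 252 in rrp46-Q86I and 177 of 243 in rrp45-I15P. The low counts therefore do not show that the other rows were unchanged. The rrp46-L127T row was not among the calls made here.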

How the data were processed

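Total RNA was depleted of rRNA and made into Zymo-Seq RiboFree libraries, per the labels' protocols. The deposited files hold raw counts per feature in each library, whole numbers with no normalization by the authors; per the submitters' processing notes the tools were STAR, featureCounts 1.22.2, StringTie 2.1.7 and DESeq2 1.38.1 and the build was R64. Strand and multiple-match settings are not given in the sources used here. The authors' deposited comparison tables give a log2 fold change, a p-value and an adjusted p-value per feature, per the file headers, and were used for description only.

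Counts were analysed in R 4.3.3 with edgeR 4.0.16 over all features (filterByExpr with a minimum count of 10, TMM, robust quasi-likelihood F test, two-sided, Benjamini-Hochberg over all features tested), 3 libraries against 3 (SE is that of the log2 fold change), and the tRNA rows were read from that fit. The script was tested on simulated data. DESeq2 1.42.0, library totals, TMM on protein-coding rows, no filter, a joint fit of the 39 libraries, a replicate block and leaving out each library were alternatives. Replicate numbers were not used to pair libraries in the main fit. In no comparison did all 3 same-numbered pairs have correlated deviations above 0.1. That check does not settle pairing: in rrp46-L127T the correlations were 0.096, 0.082 and 0.093, against a mean of -0.044 for other pairs. No replicate pair agreed within counting noise. Errors on levels are SD of 3 libraries, and errors on ratios of sums are propagated from the SDs of mutant and control. Counting error is set by the depth, a median of 10 counts per tRNA row and library. Rows were named by rule: per mutant, up to 5 rises and 5 falls called, with at least 1 CPM and no overlap, 3 and 3 for contrasts of alleles or effects, the 5 highest nuclear and mitochondrial rows, and the 5 called most often; copies of tK(UUU) and tG(GCC) were added after their values were seen. The rows and gene lists were chosen with earlier results of these data known. Sequences and coordinates are from RefSeq R64, and every column of values was mapped to a sample.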

Additional observations from a re-analysis of the deposited data

Results flagged for a closer look

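The effects of rrp40-W195R and rrp46-L191H, each against its own control, differed in 1 fit over 12 libraries (edgeR's quasi-likelihood test, Benjamini-Hochberg adjusted). The difference was called for 79 of 173 tested nuclear tRNA rows and 6 of 14 tested mitochondrial tRNA rows, each higher in rrp40-W195R. Of all features 34.5% were called, 16.6% higher and 18% lower. Named rows were tP(UGG)O3 with a log2 difference of 3.08, tR(UCU)K with 2.60 and tV(UAC)Q with 2.31. The rows tI(UAU)D and tR(CCG)L, each with a gene sequence of its own, rose in rrp40-W195R and fell in rrp46-L191H, and their RRP46 controls were above their RRP40 controls. The mean mitochondrial sum was likewise higher in RRP46, 22.1 RPM, than in RRP40, 13.6 RPM. The RRP40 and RRP46 families also differ in mating type and in lys2Δ0, which cannot be told apart from the genes under study.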

How the results depend on the processing

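Depth limits most tRNA rows, 73 of which were tested nowhere, and groups of 3 limit the rest. Of the 10 counts of called rows, library totals moved rrp40-S87A from 4 to 7, rrp40-W195R from 61 to 104, rrp46-L127T from 2 to 4 and rrp40-W195R against rrp40-S87A from 50 to 97. DESeq2 gave 2, 38, 1 and 30 for these, and the joint fit 9, 80, 9 and 79. The replicate block gave 4 for rrp46-L127T and 43 for the allele comparison, and the remaining counts under the block stayed within 1.5 times. Leaving out 1 library gave 80 to 93 rows in rrp4-G226D, 2 to 5 in rrp40-S87A, 36 to 72 in rrp40-W195R, 0 to 1 in rrp45-I15P, 0 to 0 in rrp46-Q86I, 0 to 24 in rrp46-L127T, 55 to 66 in rrp46-L191H, 116 to 138 in rrp6Δ, 26 to 66 in the allele comparison and 66 to 91 in the difference of effects. In adjusted CPM the nuclear sum ratios became 1.14 in rrp4-G226D, 1.03 in rrp40-S87A, 1.51 in rrp40-W195R and 1.222 in rrp6Δ, and the mitochondrial ratio 0.483 in rrp4-G226D. Leaving out 1 library, chosen as an alternative after seeing the data, put the mitochondrial ratio at 0.276 to 0.781 in rrp46-L127T and 1.17 to 1.85 in rrp40-W195R. The fold change of tW(CCA)P in rrp6Δ turned from -0.16 to 0.44 under library totals. Of 249 named values, 237 kept direction and call under DESeq2 and 231 under library totals. Where a scaling changed a value, the cause was not tested.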
